A study of Mus musculus with 3 samples.

Results

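The collagen genes of mouse diaphragm were followed across the cells that make up the tissue, in single-cell RNA sequencing of mononuclear cells. Members were all genes whose symbol has the form of a collagen α chain (Col, a number, a, a number), which gave 44 of the 32285 genes counted. They were read as fibrillar (11 genes), network-forming (9), FACIT (9, collagens that sit on the surface of fibrils), microfibrillar type VI (6), transmembrane (4) and other (5) collagens. The samples were 3 libraries, 1 per group, each made from costal diaphragm of a pair of male mice pooled. WT CD came from C57BL/6J mice on control diet for 6 months, WT HFD from C57BL/6J mice on high-fat diet (45% of kcal from lipid) for the same time, and KO HFD from Thbs1-null mice of the whole-body knockout strain B6.129S2-Thbs1tm1Hyn/J on the same high-fat diet. Cells were freed with collagenase type II and dead cells were excluded by DAPI staining in the flow cytometer.

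Collagens are trimers of α chains. The fibrillar chains of types I and III form the tensile fibers of muscle connective tissue, types V and XI set fibril diameter, type IV builds the basement membrane sheet around each myofiber and capillary, and type VI forms beaded microfilaments beside it. Fibro-adipogenic progenitors (FAPs), the PDGFRα-positive stromal cells of muscle, are known as a main source of interstitial matrix. Thrombospondin-1, the product of Thbs1, is a matricellular protein known to activate latent TGF-β.

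The 3 libraries held 4132 cells and 34312860 unique molecular identifiers (UMIs, 1 per captured mRNA molecule) in WT CD, 3774 cells and 31967976 UMIs in WT HFD, and 4369 cells and 36478779 UMIs in KO HFD. The median cell had 7632.5, 8041.5 and 7554 UMIs, in that order. Levels are in CPM (a gene's UMI count in relation to every 1000000 UMIs found in those cells). Reads came from the 3′ end, so a UMI is not weighted by transcript length, but capture can differ between genes. With 1 library per group no test between groups was possible. Intervals cover counting error only (95%, exact) and not the difference between animals. Few cell barcodes were shared by libraries (7, 7 and 2 in the 3 pairs). Thbs1 itself was counted at 136 CPM in WT CD, 202 CPM in WT HFD and 163 CPM in KO HFD over all cells. In FAPs it stood at 193, 233 and 229 CPM. A 3′ count does not check an allele whose lesion lies elsewhere in the gene. The sample labels do not say which part of Thbs1 the allele lacks, so the genotype of KO HFD rests on its label.

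Cells were clustered without the collagen genes and classes were named from markers, so that collagens did not define the classes in which they were counted. FAP-like cells (6608 of 12275) held Pdgfra at 415 CPM and Dcn at 15515 CPM. MuSC-like cells (muscle stem cells, 1183) held Pax7 at 276 CPM, endothelial-like cells (718) Cdh5 at 1140 CPM, lymphatic-like cells (274) Prox1 at 600 CPM, Schwann-like cells (103) Sox10 at 183 CPM, mesothelial-like cells (177) Msln at 877 CPM and tenocyte-like cells (60) Scx at 204 CPM, each with 2.15 CPM or less of the named gene in FAP-like cells. The tenocyte class also held Pax7 at 68.5 CPM, a MuSC gene. The class names below carry this sense of likeness. Clusters 4 and 6 of the FAP class had the tenocyte marker Thbs4 among their 10 leading genes against the other clusters. No cluster of the FAP class had a FAP marker among its 10, and clusters 4 and 6 had all 4 FAP markers detected. FAP results are therefore also given by cluster and state.

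All collagens but Col10a1, the hypertrophic cartilage collagen, had at least 1 UMI. A count of 0 allows Col10a1 a level of up to 0.0504 CPM in FAPs. Collagens made up 0.665% of UMIs in WT CD, 0.853% in WT HFD and 0.767% in KO HFD. Of 780507 collagen UMIs, FAPs held 93.0% (Clopper-Pearson interval 93.0 to 93.1%), while they were 53.8% of cells. The 44 genes summed to 12212 CPM in FAPs, 8998 CPM in tenocytes, 3789 CPM in mesothelial cells, 3122 CPM in Schwann cells, 2177 CPM in endothelial cells and 1294 CPM in MuSCs. In some class of at least 50 cells, 24 members reached 50 CPM. The other 20 peaked between 0 and 49.1 CPM, and 13 of the 44 had under 100 UMIs in all.

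**Figure D1:**
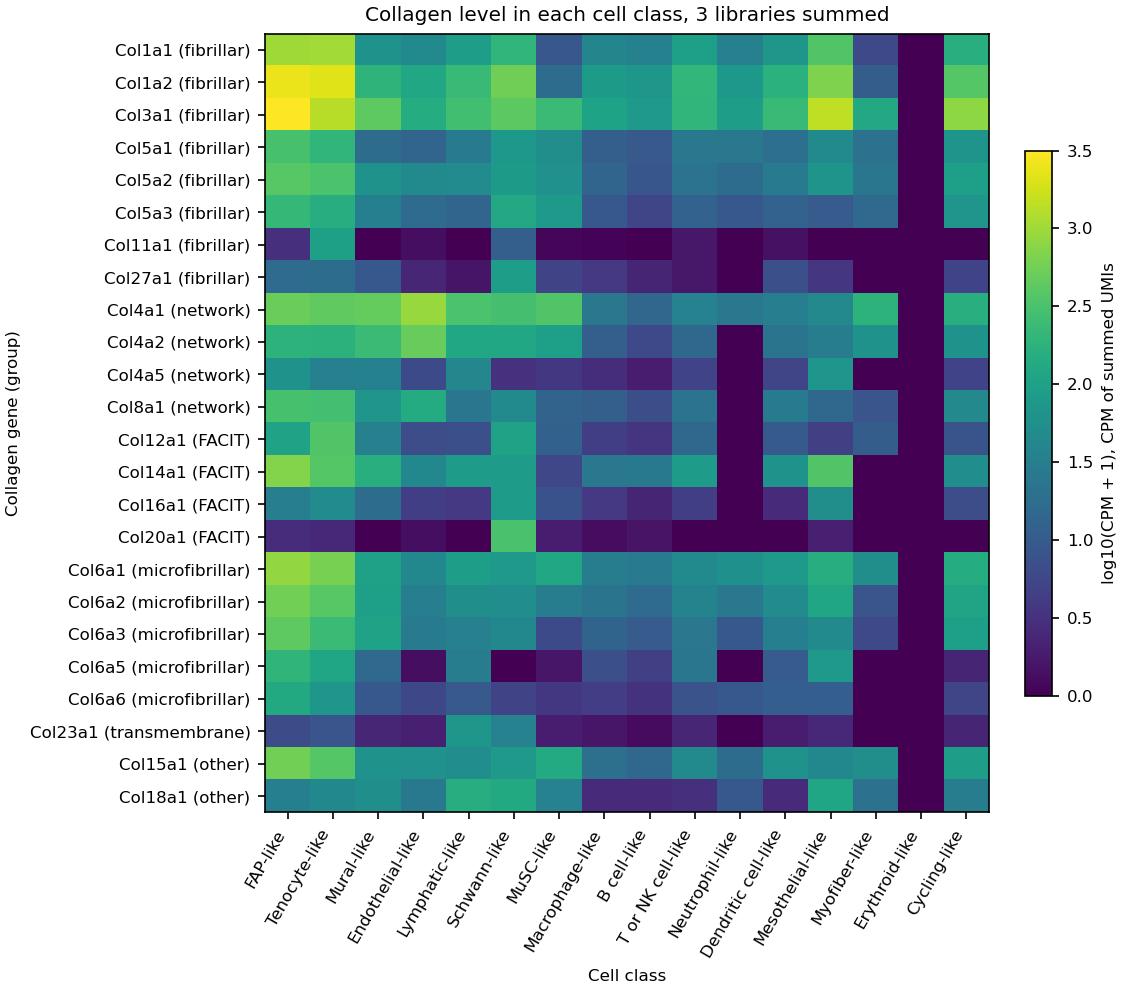
Level of the 24 collagens that reached 50 CPM (rows, with their group) in 16 cell classes (columns), all 3 libraries summed; color is log10(CPM + 1). FAPs and tenocytes are bright in most rows, whereas Col4a1 and Col4a2 peak in endothelial cells (902 and 485 CPM) and Col20a1 is bright in Schwann cells alone (311 CPM).

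FAPs were the highest class for 13 of the 24 members, tenocytes for 3, Schwann cells for 3, endothelial cells for 2, lymphatic cells for 2 and mesothelial cells for 1. For 18 of the 24 the highest class was the same in all 3 libraries. The level in FAPs was led by Col3a1 (type III fibrils, 3078 CPM) and Col1a2 (2461 CPM), the α2 chain of type I, followed by Col1a1 (1007 CPM). Next came the type VI chains Col6a1 (852 CPM) and Col6a2 (576 CPM), the FACIT Col14a1 (711 CPM) and Col15a1 (570 CPM), a basement membrane zone collagen. Type I protein holds more α1 than α2 chains, and FAPs held 0.409 Col1a1 UMIs for each Col1a2 UMI (interval 0.405 to 0.413). That ratio is one of captured 3′ ends and was 0.490 in tenocytes and 0.526 in mesothelial cells.

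Sequences before the start sites are shown for 4 collagens on which the results turn. Below are the 250 bases before the RefSeq start site (GRCm38.p6, 5′ to 3′ on the gene's strand) of the FAP collagens Col3a1 and Col1a2, of Col6a5, the collagen that differed most between KO HFD and WT HFD in FAPs, and of Col20a1, the Schwann collagen. Capitals mark exact matches on either strand to the string TATAAA, to the string CCAAT and to the string GGGCGG, which occur in common promoter elements.
Col3a1, chr1:45311288-45311537, plus strand: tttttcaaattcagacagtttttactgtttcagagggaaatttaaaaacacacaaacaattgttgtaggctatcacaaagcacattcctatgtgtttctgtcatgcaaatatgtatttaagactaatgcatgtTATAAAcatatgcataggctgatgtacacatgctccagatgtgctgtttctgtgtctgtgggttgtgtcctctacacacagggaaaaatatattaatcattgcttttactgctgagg
Col1a2, chr6:4505368-4505617, plus strand: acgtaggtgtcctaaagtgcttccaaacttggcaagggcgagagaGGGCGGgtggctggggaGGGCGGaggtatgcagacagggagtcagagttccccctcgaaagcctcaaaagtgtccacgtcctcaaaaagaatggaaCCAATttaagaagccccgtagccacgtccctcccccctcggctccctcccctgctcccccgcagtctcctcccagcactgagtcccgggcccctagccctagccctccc
Col6a5, chr9:105960644-105960893, minus strand: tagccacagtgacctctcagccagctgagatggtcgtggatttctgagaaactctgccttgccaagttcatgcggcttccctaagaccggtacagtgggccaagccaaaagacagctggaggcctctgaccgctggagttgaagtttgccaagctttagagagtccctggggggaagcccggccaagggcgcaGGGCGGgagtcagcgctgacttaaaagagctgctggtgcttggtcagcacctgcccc
Col20a1, chr2:180986285-180986534, plus strand: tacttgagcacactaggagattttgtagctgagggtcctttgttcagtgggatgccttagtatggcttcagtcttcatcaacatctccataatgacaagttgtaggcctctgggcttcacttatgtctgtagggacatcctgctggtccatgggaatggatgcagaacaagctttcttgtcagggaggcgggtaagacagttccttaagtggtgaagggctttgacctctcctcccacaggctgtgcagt

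Col3a1 held 1 TATAAA and neither other string, and Col1a2 held 2 GGGCGG and 1 CCAAT. Col6a5 held 1 GGGCGG, and none of the 3 was found in the Col20a1 window. RefSeq gave 38 such windows for 35 of the 44 genes, of which 5 held TATAAA, 13 CCAAT and 22 GGGCGG. Of all 32851 RefSeq windows, 12.4%, 33.8% and 32.7% held them. The matches describe letters and not bound sites.

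Col4a1 (chr8:11198423-11312826, minus strand) and Col4a2 (chr8:11312805-11449287, plus strand), whose products join in one trimer of the basement membrane, start from the same place in opposite directions. Their gene models overlap by 22 bases, chr8:11312805-11312826, which on the plus strand read as follows, with the string GGGCGG in capitals.
Col4a1 and Col4a2: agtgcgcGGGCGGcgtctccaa

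The pair was highest in endothelial cells in each library. Col4a1 stood there at 775 CPM in WT CD, 1059 CPM in WT HFD and 882 CPM in KO HFD, and Col4a2 at 458, 553 and 439 CPM. Both genes summed were 0.99 higher on the log2 scale in endothelial cells than in FAPs (interval 0.94 to 1.03). Of all Col4a1 UMIs, 80.3% were nevertheless in FAPs. Over all genes, FAPs held 59466671 UMIs in 6608 cells and endothelial cells 2942638 UMIs in 718 cells. The number of Col4a1 UMIs for each Col4a2 UMI was 1.86 in endothelial cells (1.75 to 1.99), 2.90 in FAPs (2.83 to 2.96) and 3.74 in MuSCs (3.42 to 4.09), so the intervals of the 3 classes did not overlap. Another head-to-head pair of type IV, Col4a5 and Col4a6 on the X chromosome, has RefSeq start sites 1343 bases apart. It was highest in mesothelial cells, the lining of the muscle surface, at 67.9 and 39.3 CPM over all libraries. Mesothelial cells had 1.73 Col4a5 UMIs for each Col4a6 UMI (1.29 to 2.32) against 11.2 in FAPs (9.97 to 12.6). In KO HFD mural cells led Col4a5, but only 43 cells stood behind that value. Of these, 8 had Dcn, a FAP marker, above 1000 CPM and held 65.3% of the collagen UMIs of the 43.

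Schwann cells, the glia of the intramuscular nerves, held a set of minor collagens. Col20a1, a FACIT, was counted at 255 CPM in WT CD, 334 CPM in WT HFD and 333 CPM in KO HFD (34, 43 and 69 UMIs), against 1.77 CPM in FAPs. Its highest level outside Schwann cells was thus the FAP value. Col27a1, a fibrillar collagen of cartilage, was 87.3 CPM in Schwann cells and 15.7 CPM in FAPs. Col16a1, a FACIT, was 83.0 CPM in Schwann cells over all libraries, though tenocytes led it in WT HFD. Col28a1, known from peripheral nerve, was 36.2 CPM, and Col24a1 was 23.4 CPM with no UMI in the KO HFD Schwann cells. The classes were small, with 33, 30 and 40 Schwann cells per library.

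Tenocytes led Col11a1 (96.8 CPM), Col12a1 (353 CPM) and, in both wild-type libraries, Col1a1 (1048 CPM over all libraries). In those libraries they also led Col1a2, at 2281 CPM in WT CD and 2901 CPM in WT HFD, but not in KO HFD (1314 CPM). Below 50 CPM they led Col11a2 (49.1 CPM), the short-chain Col8a2 (23.8 CPM) and Col22a1 (22.3 CPM), the FACIT of the muscle-tendon junction. Only 22, 20 and 18 cells stood behind these values. Col11a1, which with Col11a2 nucleates thin fibrils, was 78.7 CPM in WT CD, 207 CPM in WT HFD and 22.4 CPM in KO HFD. Col1a1 ran in the same order (1097, 1678 and 447 CPM), and so did Dcn, a marker of both tenocytes and FAPs (15766, 19622 and 9455 CPM). With under 50 cells per library these values were not compared further.

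Lymphatic cells led Col23a1, a transmembrane collagen, at 96.9 CPM in WT CD, 68.3 CPM in WT HFD and 53.6 CPM in KO HFD. They also led Col18a1 (149 CPM), the precursor of endostatin, closely followed by Schwann cells (134 CPM). In WT HFD the highest class for Col18a1 was the Schwann cell, 1 of the 6 changes of rank among the 24 members.

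MuSCs had their own mixture. The highest members were Col4a1 (350 CPM), Col3a1 (244 CPM), Col15a1 (137 CPM), Col6a1 (121 CPM), Col4a2 (93.6 CPM) and Col5a3 (75.1 CPM). Col1a1 was only 7.89 CPM. The ratio of Col3a1 to Col1a1 UMIs was 60.7 in WT CD (interval 27.6 to 166), 30.7 in WT HFD (19.3 to 52.2) and 24.8 in KO HFD (17.0 to 37.6). In FAPs the same ratio was 2.77, 3.48 and 2.92, and in B cells 2.27 over all libraries. The MuSC ratio was above the FAP ratio in each library, with no overlap of intervals. Type VI was uneven as well. MuSCs held 0.0426 Col6a3 UMIs for each Col6a1 UMI (0.029 to 0.060) against 0.501 in FAPs (0.493 to 0.508), although the α3(VI) chain is a standard partner of α1 and α2 in the type VI trimer. The ratio in MuSCs was 0.0402, 0.0365 and 0.0472 in the 3 libraries. Cells were thinned to 3000 UMIs each, and those below that depth were left out (102 MuSCs and 42 B cells, with 1081 and 663 kept). Shares before and after thinning are of the cells kept. After thinning, 39.96% of MuSCs had a Col3a1 UMI (54.3% unthinned) against 4.22% of B cells (8.45% unthinned), a class that should lack it. A Col1a1 UMI was found in 1.11% of MuSCs against 2.26% of B cells. The Col1a1 share was thus at background. So was that of Col6a3, at 0.278% of MuSCs (0.925% unthinned) against 1.06% of B cells (3.02% unthinned), whereas Col6a1 was found in 26.3% of MuSCs (42.2% unthinned) against 2.87% of B cells (4.83% unthinned). The ratios of MuSCs above that rest on Col1a1 or Col6a3 therefore have a background count on one side. Median depth was 5057 UMIs in MuSCs and 8384 UMIs in B cells.

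FAPs were split into 8 states, again without collagens. A state is called by the marker set that stood highest in it against the other states or, for Iigp1 Ifi203 Myc and the smallest state, by its leading genes. The genes of a name need not lead the state. Spon2 but not Sfrp4 was among the 10 leading genes of the state called Sfrp4 Spon2, which opened with Sult1e1, Lgals3 and C4b, whereas Sfrp4 was among those of Dio2 Pthlh. Of these, 7 had at least 50 cells in every library. The state Fmod Sfrp2 Tnmd, whose gene Tnmd is also a tenocyte marker, held the most collagen, 17259 CPM, and Dpp4 Sema3c the least of the 7, 8052 CPM. The median cell had 7684 UMIs in the former and 11001 UMIs in the latter. States were filled unevenly. Iigp1 Ifi203 Myc held 372 of 2229 FAPs in WT CD, 291 of 1979 in WT HFD and 602 of 2400 in KO HFD. Dpp4 Sema3c held 190, 253 and 212 in the same libraries. A sum over all FAPs therefore mixes the states in different shares in each library.

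**Figure D2:**
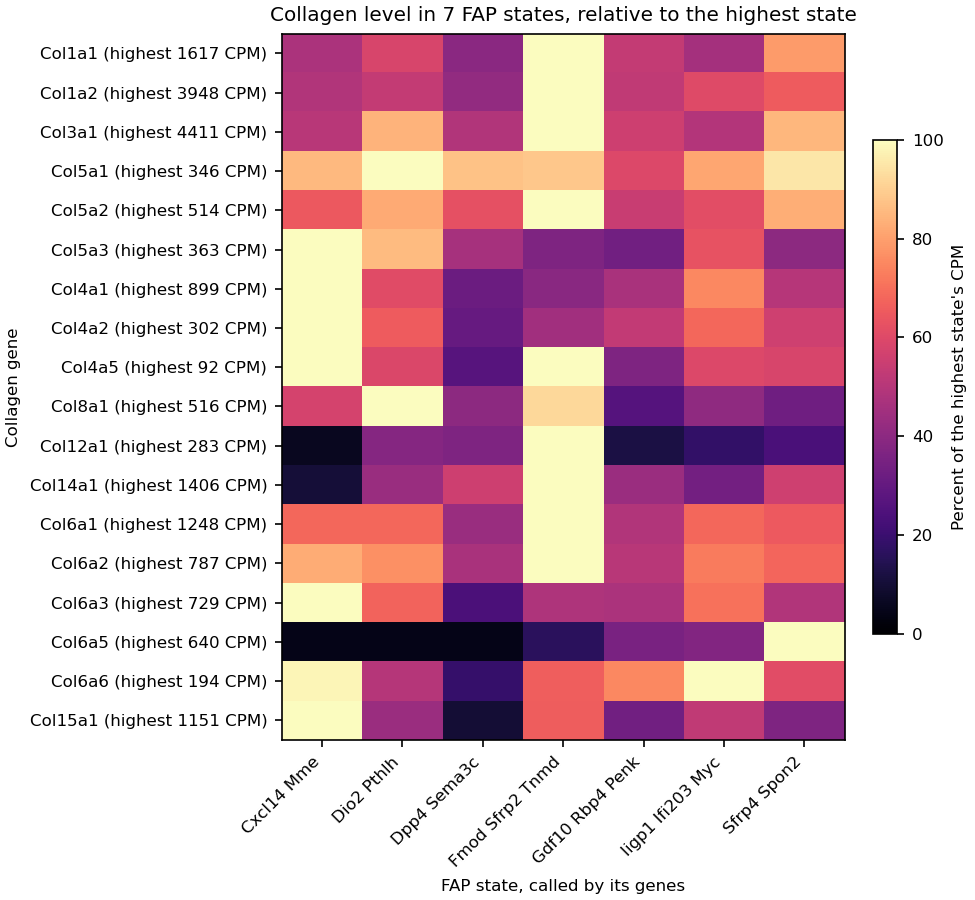
Level of the 18 collagens that reached 50 CPM in a state (rows) in 7 FAP states (columns) as a percent of the state where it was highest (color), all libraries summed; row labels give that highest level in CPM. Fibrillar types I and III peak in the Fmod Sfrp2 Tnmd state, Col4a1, Col4a2 and Col15a1 in the Cxcl14 Mme state, and Col6a5 in the Sfrp4 Spon2 state at 640 CPM.

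The Fmod Sfrp2 Tnmd state was highest for Col1a1 (1617 CPM), Col1a2 (3948 CPM) and Col3a1 (4411 CPM), and for the fibril-associated Col14a1 (1406 CPM) and Col12a1 (283 CPM). By cluster number, Col1a1 (1594 CPM) and Col1a2 (3995 CPM) were highest in cluster 4, whose first leading gene was Sfrp2. Col3a1 was instead highest in cluster 6, which opened with Sfrp4 and Dio2, at 4904 CPM against 4303 CPM in cluster 4. Col12a1 was 17.2 CPM in the Cxcl14 Mme state. That state was instead highest for Col15a1 (1151 CPM), Col4a1 (899 CPM), Col6a3 (729 CPM) and Col5a3 (363 CPM). Dpp4 Sema3c stood at the other end for these basement membrane genes, with Col15a1 at 113 CPM and Col4a1 at 286 CPM. Dio2 Pthlh was highest for Col8a1 (516 CPM), a short-chain network collagen.

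The type VI genes did not follow each other among states. Col6a1 peaked with the fibrillar genes (1248 CPM in Fmod Sfrp2 Tnmd), Col6a3 in Cxcl14 Mme, and Col6a5 in Sfrp4 Spon2, at 640 CPM against 27.7 to 28.5 CPM in the 3 lowest of the 7 states. Col6a5 and Col6a6 are alternative type VI chains that resemble α3. Col6a6 spanned 36.7 CPM in Dpp4 Sema3c to 194 CPM in Iigp1 Ifi203 Myc.

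The first comparison asked how 6 months of high-fat diet altered collagen RNA in FAPs. Collagens summed to 10813 CPM in WT CD and 13516 CPM in WT HFD, 0.32 higher on the log2 scale (interval 0.31 to 0.33, counting error only). Of 21 members with at least 20 CPM in either library, 19 were higher in WT HFD, 17 of them with an interval above 0, and 2 were lower. Most genes leaned the same way, with 73.2% of all genes higher and 39.1% with an interval above 0 (intervals are narrower for abundant genes). Col4a4 (18.2 and 21.5 CPM) had 20 CPM in WT HFD alone and so had to be higher. Of the 20 collagens with 20 CPM in both libraries 18 were higher, as were 72.9% of all genes so read. The median log2 ratio of the 21 members with 20 CPM in either library was 0.26, against 0.09 over all 5774 genes so read. One collagen, Col4a1, passed 1.5-fold, as did 0.572% of all genes in that direction. At a log2 ratio of 0.322 or more, 7 collagens passed (Col3a1, Col5a2, Col5a3, Col6a3, Col4a1, Col4a2 and Col4a5), against 6.17% of all genes. No collagen was lower by 1.5-fold or by a log2 ratio of 0.322, as 0.623% and 2.39% of genes were.

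The network group, with 5 of 5 genes higher (Col4a4 among them), was led by Col4a1, at 407 CPM in WT CD, 617 CPM in WT HFD and 541 CPM in KO HFD. Its log2 ratio of WT HFD to WT CD was 0.60 (0.56 to 0.64). Col4a2 went from 145 to 210 CPM (log2 0.54, 0.47 to 0.61). All 6 fibrillar genes were higher, and both group counts stand beside the 73.2% of all genes that were higher. Col3a1, at 2645, 3613 and 3010 CPM in the 3 libraries, had a log2 ratio of 0.45 (0.43 to 0.47), while Col1a1, at 954, 1037 and 1031 CPM, had one of 0.12. Col1a1 thus moved less than its type I partner Col1a2 (2171, 2678 and 2541 CPM, log2 0.30). Col6a3 went from 351 to 493 CPM (log2 0.49). The 2 lower members were Col12a1 (120 and 102 CPM, log2 -0.24) and Col6a5 (156 and 134 CPM, log2 -0.22).

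**Figure D3:**
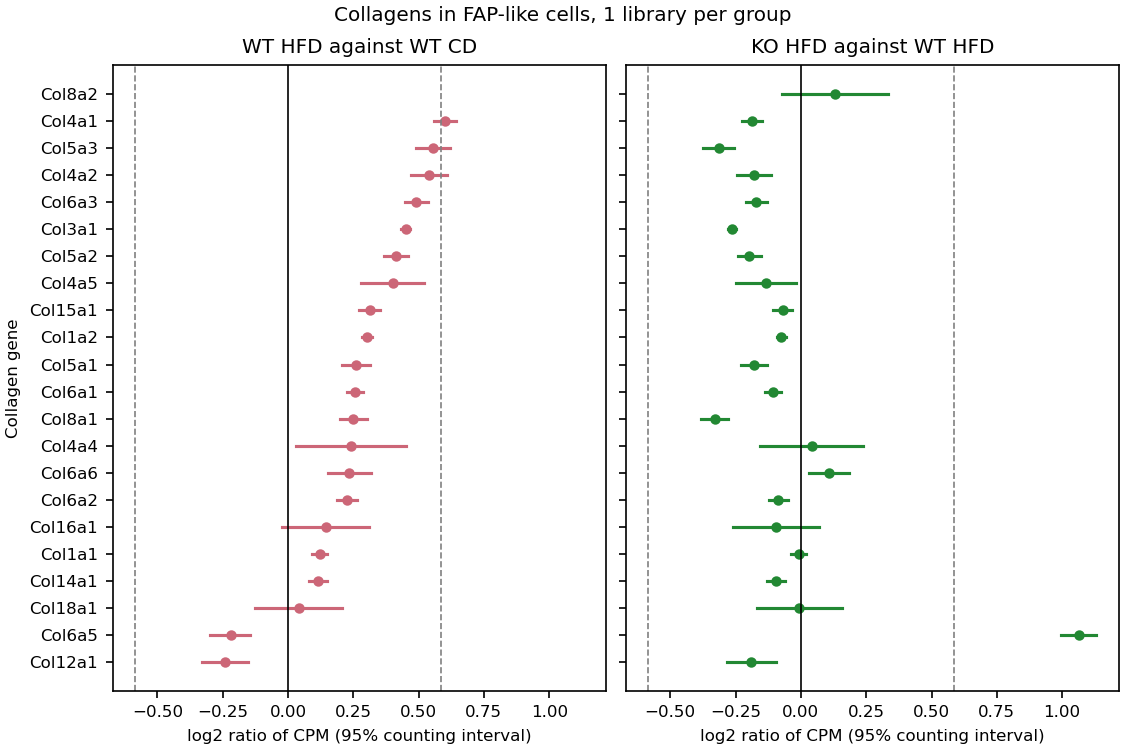
Log2 ratio of CPM in FAPs for each collagen with at least 20 CPM in a compared library, WT HFD against WT CD (left) and KO HFD against WT HFD (right), with 95% counting intervals (lines); dashed lines mark 1.5-fold. On the left 19 of 21 points lie above 0, on the right 18 of 22 lie below 0, and Col6a5 stands alone at 1.06.

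Of 19 collagens read in all 7 states, Col3a1, Col1a2, Col4a1, Col4a2, Col5a2, Col6a1 and Col6a3 were higher in WT HFD in 7 of 7, each with an interval above 0, as were 1.05% of all genes read in all states. The 2 lower members went both ways among states. Col12a1 was lower in 4 of the 6 states where it was read and higher in 2, with log2 ratios of -0.55 to 0.67. Col6a5 was lower in 4 of 7 and higher in 3, from -0.79 to 0.33. The log2 ratio of Col4a1 ran from 0.31 to 1.43 among states, and it was highest in Sfrp4 Spon2. By cluster number, Col4a1 was higher in 6 of 6 FAP clusters, from 0.37 to 0.89. Scaled with TMM factors in place of all UMIs, no collagen passed 1.5-fold and Col4a1 stood at 0.53. Col4a1 was 0.52 as a mean over cells, and it likewise did not pass with states weighted alike. Without clusters 4 and 6, Col3a1 (0.61) passed and Col4a1 (0.55) did not. Col6a5 turned its sign with states weighted alike (0.03).

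The second comparison asked how loss of Thbs1 altered the same genes under high-fat diet. It shares the WT HFD library with the first, so the values of both are tied through that library and are given side by side only. Collagens summed to 12365 CPM in KO HFD, a log2 ratio of -0.13 to WT HFD (-0.14 to -0.12). Of 22 members read, 18 were lower, 15 of them with an interval below 0, and 4 were higher. Of all genes 64.7% were lower, and 26.0% had an interval below 0. Col8a2 (19.2 CPM in WT HFD and 21.0 CPM in KO HFD) was read through KO HFD alone, so it had to be among the higher. Of the 21 with 20 CPM in both libraries 18 were lower, as were 64.8% of all genes so read. Over the 22 members first read the median log2 ratio was -0.10, against -0.05 over all 5800 genes. No collagen was lower by 1.5-fold (0.241% of all genes were), and 1, Col8a1, was lower by 0.322 or more on the log2 scale (2.07% of all genes). Col8a1 went from 346 CPM in WT HFD to 275 CPM in KO HFD, with 291 CPM in WT CD. Col5a3 (258 and 207 CPM, log2 -0.315) and Col3a1 (log2 -0.26) came next. Col1a1 differed by less than its counting error (log2 -0.01, -0.04 to 0.03).

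Col6a5 was the exception. It was counted at 156 CPM in WT CD, 134 CPM in WT HFD and 280 CPM in KO HFD, so that both wild-type libraries lay below the knockout library. Its log2 ratio of KO HFD to WT HFD was 1.06 (0.995 to 1.131), and it was the 1 collagen past 1.5-fold in the higher direction, as were 0.431% of all genes. No other collagen was higher by 0.322 or more on the log2 scale, as 2.55% of all genes were. Across states Col6a5 was higher in KO HFD in 6 of 7, each with an interval above 0, as were 1.14% of all genes read in all states in 6 or more. In Sfrp4 Spon2 it went from 502 to 943 CPM, in Iigp1 Ifi203 Myc from 142 to 318 CPM, and in Dpp4 Sema3c from 16.3 to 41.4 CPM. The state where it was not higher was Fmod Sfrp2 Tnmd, at 115 CPM in WT HFD and 98.9 CPM in KO HFD. By cluster number Col6a5 was higher in 6 of 6, with log2 ratios of 0.18 to 2.21. The related Col6a6 (114, 134 and 144 CPM) differed by 0.11 and Col6a1 by -0.11. Col6a5 lies at chr9:105856078-105960643 (minus strand).

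**Figure D4:**
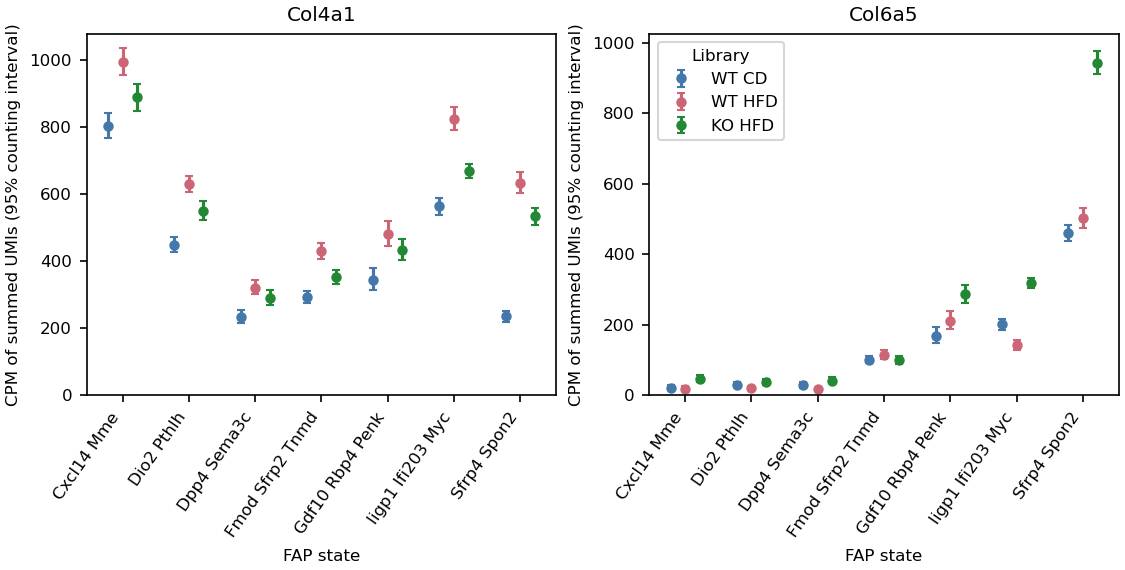
CPM of Col4a1 (left) and Col6a5 (right) in 7 FAP states in each library, with 95% counting intervals. Col4a1 lies higher in WT HFD than in WT CD in every state, and Col6a5 in Sfrp4 Spon2 reaches 943 CPM in KO HFD against 459 CPM in WT CD and 502 CPM in WT HFD.

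Outside FAPs, part of the collagen was counted in cells that also held much FAP RNA. Dcn (decorin, the most abundant FAP marker) was above 1000 CPM in 6605 of 6608 FAPs, and in 200 of 5079 cells of the classes other than FAPs, tenocytes and mesothelial cells. Of these 200 cells 85 were called doublets by Scrublet. They held 92.9% of the collagen UMIs of B cells, 96.2% of those of dendritic cells and 87.7% of those of macrophages, but 8.98% of those of MuSCs. Lymphatic (61.7%), mural (48.6%), Schwann (26.5%) and endothelial cells (26.2%) lay in between. Without the 200 cells the collagen sum was 25.8 CPM in B cells, 40.9 CPM in dendritic cells and 57.1 CPM in macrophages. It was 1221 CPM in MuSCs (1294 CPM with them), 1738 CPM in endothelial cells (2177 CPM with them) and 2592 CPM in Schwann cells (3122 CPM with them).

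**Figure D5:**
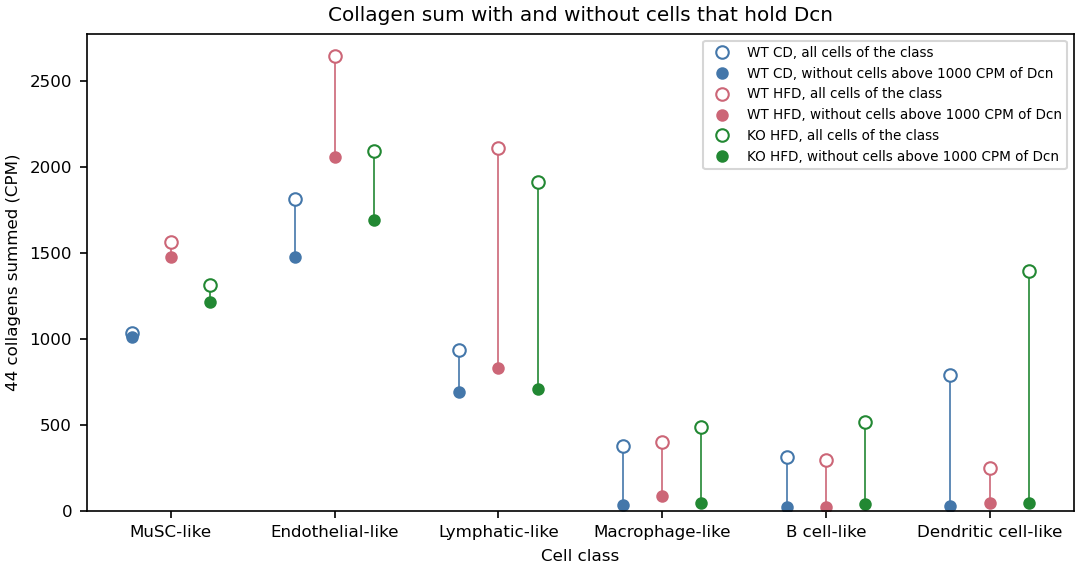
Sum of the 44 collagens (CPM) in 6 classes and 3 libraries, for all cells of a class (open circles) and without cells above 1000 CPM of Dcn (filled circles). Leukocyte sums drop to between 20.8 and 85.9 CPM, while MuSCs stay between 1013 and 1476 CPM and endothelial cells between 1478 and 2060 CPM.

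The library differences of leukocytes moved with those cells. In dendritic cells collagens summed to 790 CPM in WT CD, 249 CPM in WT HFD and 1396 CPM in KO HFD, and the 4 FAP markers summed to 1167, 387 and 1965 CPM (in WT HFD, 2 of the 4 were at 0). Without the cells of high Dcn the collagen sums were 30.8, 44.2 and 47.7 CPM. No collagen then reached 20 CPM in dendritic cells, B cells or macrophages. In lymphatic cells the fibrillar sum was 161 CPM in WT CD, 885 CPM in WT HFD and 785 CPM in KO HFD. The FAP markers summed to 515, 888 and 2361 CPM in the same libraries, and their part in the result was not tested beyond leaving out those cells. In lymphatic cells 11 of 17 collagens read were higher by 1.5-fold in WT HFD than in WT CD (7.42% of all genes). Without the cells of high Dcn only 5 collagens still had 20 CPM, of which 2 were higher (6.69% of all genes). These were Col4a1 (224 and 355 CPM, log2 0.67, 0.31 to 1.04) and Col4a2 (75.5 and 141 CPM, log2 0.90, 0.29 to 1.56).

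In MuSCs, again without the cells of high Dcn, 12 collagens were read for diet, of which 5 were higher by 1.5-fold in WT HFD (13.0% of all genes in MuSCs were) and 1 was lower (2.65% of all genes). Of these 6, Col26a1 and Col8a1 had 20 CPM only in the library where they were higher, so they had to differ and are given as values only. Among the 10 collagens with 20 CPM in both libraries, 4 were higher (9.62% of all genes) and 0 lower (1.93% of all genes). Col4a1 was 262 CPM in WT CD, 434 CPM in WT HFD and 351 CPM in KO HFD, with a log2 ratio of WT HFD to WT CD of 0.73 (0.56 to 0.90). Col3a1 was 183, 309 and 208 CPM, with a ratio of 0.76 (0.56 to 0.96). Col15a1 was 80.1, 149 and 157 CPM, so KO HFD lay with WT HFD for this gene and nearer WT CD for Col3a1. Col5a3 (58.6, 99.95 and 67.7 CPM) and Col26a1 (9.14, 23.1 and 10.7 CPM) were the other 2. Col8a1 was the lower member, at 23.1 CPM in WT CD, 3.75 CPM in WT HFD and 7.25 CPM in KO HFD, on 43, 6 and 21 UMIs. The median ratio of those 10 was 0.46, against 0.15 over all genes with 20 CPM in both libraries. In KO HFD against WT HFD, 1 of 11 collagens was lower by 1.5-fold (2.96% of all genes). This was again Col26a1, read through WT HFD alone. Of the 10 with 20 CPM in both libraries 0 passed in either direction, where 0.842% of all genes were higher and 1.41% lower.

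In endothelial cells without high Dcn, Col4a1 was 794 CPM in WT CD, 1098 CPM in WT HFD and 905 CPM in KO HFD (log2 0.47, 0.33 to 0.60, for diet). Of 8 collagens read, 3 were higher by 1.5-fold in WT HFD (4.14% of all genes) and 1 was lower (2.19%). Of these 4, Col3a1, Col18a1 and Col13a1 had 20 CPM only in the library where they were higher, and their values are descriptions. Among the 5 collagens with 20 CPM in both libraries 1, Col5a2, was higher (2.87% of all genes) and 0 were lower (1.26% of all genes). One of the 3, Col3a1, rested on a single cell with 50 of its 57 UMIs. Col18a1 (9.85, 32.3 and 36.0 CPM) was spread over 8, 17 and 23 cells, and Col5a2 was 23.6, 44.2 and 25.7 CPM. Col13a1, a transmembrane collagen, had 24 UMIs in 8 cells of WT CD, none in WT HFD and 5 in KO HFD. Its 23.6 CPM in WT CD was 7.31 times a floor of 3 counts in WT HFD (3.23 CPM). That figure leaves out the counting error of the WT CD value, so it is not a lower bound.

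Collagen needs a dedicated set of enzymes and chaperones, and 42 such genes were read beside the chains. The list ran from hydroxylation of the nascent chain to uptake of the degraded fiber. In FAPs 31 of the 42 had at least 20 CPM in a compared library. In WT HFD against WT CD, 26 were higher and 5 lower, beside 73.2% of all genes that were higher. Their median log2 ratio was 0.15, against 0.09 over all genes, and none passed 1.5-fold (0.572% of all genes were higher and 0.623% lower by that much). Serpinh1, which encodes the collagen chaperone HSP47, was 1159 CPM in WT CD, 1236 CPM in WT HFD and 1099 CPM in KO HFD. All 4 genes of propeptide cleavage were higher, among them Pcolce2 (364 and 413 CPM). So were 5 of 5 for receptors and uptake, such as Mrc2 (104 and 126 CPM), the endocytic collagen receptor.

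Of 13 genes of hydroxylation 10 were higher, a share close to the 73.2% of all genes, and 6 had an interval above 0 (39.1% of all genes). Colgalt2, a collagen galactosyltransferase, had the largest ratio of the 31 (20.9 and 27.6 CPM, log2 0.40) and was the 1 of 31 above 0.322, as 6.17% of all genes were. Creb3l1, a transcription factor of collagen secretion, was lower (80.8 and 67.8 CPM, log2 -0.25). In KO HFD against WT HFD, 26 of the 31 were lower, where 64.7% of all genes were, with a median of -0.09, against -0.05 over all genes. Loxl2, a cross-linking lysyl oxidase, stood lowest, at 140 CPM in WT CD, 173 CPM in WT HFD and 131 CPM in KO HFD (log2 -0.40, -0.48 to -0.33). Its relative Lox went the other way, at 146, 162 and 183 CPM (log2 0.18, 0.11 to 0.24). By class, Serpinh1 was 1162 CPM in FAPs, 379 CPM in endothelial cells and 253 CPM in MuSCs, and Adamts2, the procollagen N-proteinase, was 169 CPM in FAPs but 1.97 CPM in MuSCs. Itga1, a collagen receptor subunit, had the opposite order, with 356 CPM in endothelial cells and 27.8 CPM in FAPs.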

How the data were processed

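Mononuclear cells were profiled with 10x Genomics 3′ V3.1 chemistry. The authors aligned reads with Cell Ranger (6.1.1 in the submitters' notes) to mm10 and deposited 1 filtered matrix of UMI counts per library, raw and not normalized. All barcodes were kept. Counts were scaled to 10000 per cell, 2000 variable genes without collagens and 30 components were used for Leiden clustering (resolution 1, scanpy 1.11.5), and clusters were named from the marker lists. FAPs were subclustered at resolution 0.5. Scrublet called 1.23% of barcodes doublets, which were kept in the main values. UMI counts were summed per class and library to CPM (Poisson intervals). Log2 ratios carry exact conditional binomial intervals. Members with at least 20 CPM in 1 of 2 libraries, in classes of at least 50 cells in both, were compared, and 1.5-fold with an interval excluding 0 was called. Members with at least 50 CPM in a class were named by rule, and lower ones were named after their values were seen. The interval code was tested on simulated data. Clusters with 351 cells stayed unnamed.

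The study compared FAPs on cells. Cells are not replicates, so no p-value is given. Members, gene lists and marker lists were chosen with earlier results of these data known. The step without cells above 1000 CPM of Dcn, that without clusters 4 and 6, and that with 20 CPM in both libraries, were added after seeing the data. Coordinates are GENCODE vM21 (GRCm38), and upstream sequences and start sites RefSeq. TMM factors came from edgeR 4.0.16.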

Additional observations from a re-analysis of the deposited data

Results flagged for a closer look

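In 10 results a collagen was past 1.5-fold in opposite directions in 2 classes under the same comparison. The difference between classes was not tested, since each group is 1 library. The share of all genes with such an opposition was not counted. Past 1.5-fold for diet were 7.42% of all genes as higher in lymphatic cells and 6.3% as lower in dendritic cells. For KO HFD against WT HFD, 7.9% were higher in dendritic cells, 4.03% lower in endothelial cells and 4.08% lower in mesothelial cells. For WT HFD against WT CD, lymphatic cells were higher and dendritic cells lower, by a difference in log2 ratio of 7.0 for Col3a1, 4.50 for Col1a1, 4.39 for Col6a1, 4.06 for Col14a1 and 3.5 for Col1a2. For KO HFD against WT HFD, dendritic cells were higher and endothelial cells lower, by 4.80 for Col6a1, 4.43 for Col14a1, 3.34 for Col1a1 and 3.25 for Col1a2. The last was Col6a2, with dendritic cells higher and mesothelial cells lower by 3.39. In dendritic cells the FAP markers summed to 1167 CPM in WT CD, 387 CPM in WT HFD and 1965 CPM in KO HFD, in the order of the collagens. Without cells above 1000 CPM of Dcn no collagen reached 20 CPM in dendritic cells, and none of the 10 results remained there. No such opposition was found among FAP states.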

How the results depend on the processing

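No paired analysis was possible because each group is 1 library. For the same reason leaving out a replicate could not be tried. Of collagen UMIs, FAPs held 93.3% with cells of at least 500 genes and at most 10% mitochondrial UMIs, 94.7% with doublets removed, 93.1% with collagens kept in clustering, 87.2% with a marker gate per cell, 93.4% at Leiden resolution 0.5, 94.7% with free RNA subtracted and 55.9% without clusters 4 and 6, which that setting takes out of the class. The log2 ratio of the FAP collagen sum, WT HFD to WT CD, was 0.34 with the gate, 0.33 with free RNA subtracted, 0.25 with TMM factors, 0.37 with states weighted alike and 0.41 without clusters 4 and 6, and its median over genes was 0.18 with TMM factors. KO HFD to WT HFD, the sum was -0.14 with the gate, -0.16 with free RNA subtracted, -0.090 with TMM factors and -0.14 as a mean over cells. Collagens past the fold for diet numbered 2 with the gate, 0 with TMM factors, 0 with states weighted alike, 0 as a mean over cells and 7 at a log2 threshold of 0.322, at which 2 passed for KO HFD. Col4a1 and Col4a2 in endothelial cells against FAPs stood at 0.94 with the filter on cells, 0.87 with collagens kept, 0.84 with the gate, 0.87 at resolution 0.5, 1.12 as a mean over cells and 0.87 without clusters 4 and 6. One result turned, Col6a5 for diet, to 0.026 with states weighted alike. Why these moved was not tested. Col6a5 in KO HFD against WT HFD ranged from 0.79 to 1.10 and Col4a1 for diet from 0.52 to 0.62 over these alternatives. Counting intervals leave out variation between animals, and with a pair of mice pooled in 1 library per group that variation cannot be told apart from diet or genotype.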
